A study of Mus musculus with 59 samples.

Results

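Genes of the ubiquitin system were followed over the day in mouse medial prefrontal cortex. They were taken by name: every gene whose symbol begins with Fbxl, Fbxo, Fbxw, Usp, Rnf, Trim, Ube2, Cul or Klhl in its numbered form, which gave 94 of the 4484 genes in the table analysed, and 93 of them had enough reads to be tested. By family these were 17 F-box genes, 19 Usp genes, 27 Rnf genes, 13 Trim genes, 9 Ube2 genes, 2 cullins and 7 Klhl genes. Trim30b was the member not tested, with at most 4 reads in any library. RNA came from homogenised tissue of the medial prefrontal cortex. The mice were adult, of the inbred strain C57BL/6J and wild type, and the labels name no transgene and no treatment in any group. The sampling times were 4 h apart, from ZT2 (zeitgeber time, by convention the hours since lights on) through ZT6, ZT10, ZT14 and ZT18 to ZT22. Each time had 5 male and 5 female libraries, except ZT10 with 5 male and 4 female, which makes 59 libraries, 30 male and 29 female. ZT14, ZT18 and ZT22 are taken as dark-phase times by that convention; the light schedule and the exact ages were not given in the sources used here.

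Ubiquitin is a small protein that is joined to other proteins by a relay of an activating enzyme, a conjugating enzyme (the Ube2 genes) and a ligase that chooses the substrate, and deubiquitinases (the Usp genes) take it off again. Cullins are scaffolds that bring a RING protein together with a substrate receptor, which is an F-box protein on some cullins and a kelch protein (Klhl) on another, and they are switched on by the ubiquitin-like protein NEDD8. Rnf and Trim proteins are mostly RING ligases that act alone or in pairs. In the circadian clock, cryptochrome and period proteins are removed each day by such ligases, and in neurons the same machinery trims synaptic proteins. A family name does not guarantee the activity: Usp6nl carries the Usp letters but is a GTPase-activating protein, and Ube2n-ps1 is annotated as a processed pseudogene whose reads could belong in part to its parent gene, so its values are uncertain.

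The courses over the day of the 6 members of smallest rhythm p were each compared with those of the other tested members. Trim27 and Klhl21 were the most alike of these pairs, so their promoter windows are shown. A window of Rnf145, also among those 6, is shown because it held a clock motif, while the other 2 of its 3 windows held none of the motifs searched. Each runs from 250 bases before to 50 bases after a start site, 5′ to 3′ in the direction of the gene, from RefSeq on GRCm38.p6, and all lie on the plus strand at chr13:21179681-21179980, chr4:152008641-152008940 and chr11:44518706-44519005. Capitals mark an E-box, CACGTG, the letters bound by the clock activators CLOCK and BMAL1.
Trim27: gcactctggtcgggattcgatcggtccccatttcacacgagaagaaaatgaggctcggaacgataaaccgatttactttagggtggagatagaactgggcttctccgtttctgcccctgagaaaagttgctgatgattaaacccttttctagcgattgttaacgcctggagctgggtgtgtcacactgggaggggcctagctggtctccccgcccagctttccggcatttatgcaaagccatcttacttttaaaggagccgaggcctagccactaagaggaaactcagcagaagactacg
Klhl21: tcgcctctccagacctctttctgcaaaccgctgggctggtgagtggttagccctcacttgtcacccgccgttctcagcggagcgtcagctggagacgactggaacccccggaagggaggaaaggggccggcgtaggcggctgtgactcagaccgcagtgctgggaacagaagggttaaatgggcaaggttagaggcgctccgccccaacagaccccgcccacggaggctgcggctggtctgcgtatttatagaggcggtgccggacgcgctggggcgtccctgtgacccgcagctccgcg
Rnf145: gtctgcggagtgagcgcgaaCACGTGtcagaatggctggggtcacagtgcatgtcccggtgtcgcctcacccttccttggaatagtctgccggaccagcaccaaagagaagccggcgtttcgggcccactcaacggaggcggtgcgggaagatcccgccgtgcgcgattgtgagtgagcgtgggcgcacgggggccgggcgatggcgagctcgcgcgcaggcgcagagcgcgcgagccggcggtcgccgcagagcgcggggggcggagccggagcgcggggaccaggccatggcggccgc
Promoter windows were found for 69 of the members and 3205 of the tested genes, and 4 motifs were searched on both strands, none of them overlapping another by its letters. An E-box stood in a window of 8 members (11.6%) and of 11.7% of the tested genes. The cAMP response element TGACGTCA was found in 2 members (2.90%), against 3.56% of tested genes. The D-box TTATGTAA was found in Klhl9 only (1.45% of members, against 0.686%). The core of the ROR element, AGGTCA, was found in 12 members (17.4%, against 14.8%). Over all 32851 windows the shares were 7.15% for the E-box, 1.79% for the cAMP response element, 0.938% for the D-box and 16.3% for the ROR core. These count single windows, while the shares of members and tested genes count genes, which can have several windows. The window shares are therefore not directly comparable with the gene shares. The windows of Trim27 and Klhl21 held none of the 4 motifs.

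A library held from 6317420 to 13325019 reads in the table (median 9015221), but 6 noncoding genes took between 61.4% and 91.2% of them. The members together had between 21989 and 88616 reads per library, which was 1.93% to 2.39% of the reads outside those 6 genes. The titles carry serial numbers, and the 11 libraries numbered 49 to 60 differed from the 48 with lower numbers: on principal component 1 (24.5% of the variance) their mean was 20.9 ± 6.61 (SD, n = 11), against means between -7.48 and 1.43 in the 4 earlier runs of 12. The labels do not say what a run of serial numbers was, and every group but the ZT10 females had 1 of the later libraries. Neuron, glia and microglia markers were present, among them Slc17a7, Gad1, Gfap and P2ry12, and no listed marker of endothelial, striatal or choroid plexus cells was in the table. Of 3 leptomeninges markers 1 was there, Lum. Markers of cortical cells were also held only in part, 2 of 5 for excitatory neurons and 1 of 5 for oligodendrocytes. Absence from the table therefore does not speak of the tissue. The titles repeat some animal numbers within a group, and nothing states that every library is a separate mouse. The p-values therefore speak of the spread between these libraries, which may be technical in part. In such bulk tissue fewer cells of a type and less RNA per cell cannot be told apart.

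The first question was which members followed the 24 h cycle. None of the 93 passed the test for a 24 h rhythm (limma, cosine and sine terms tested jointly, adjusted p under 0.05 over all genes), where 1.9% of the 4273 genes tested did. At an unadjusted p under 0.05 there were 13 members (13.98%), against 11.4% of all genes, and with limma voom on the recovered reads 0 members passed and 12 had an unadjusted p under 0.05. The amplitude, which is the log2 distance of the peak from the mean, had a median of 0.07 over the members and 0.08 over all genes. The fitted amplitude that a member would have needed to pass at its own standard error had a median of 0.21 and ran from 0.0959 to 0.996. That is a cut on the fitted values of this fit, not the smallest true rhythm that can be seen. A weak rhythm could have been missed. The fitted peaks fell in the dark phase for 49 of the 93 members (52.7%), against 49.4% of all genes. On GRCm38 the members of smallest rhythm p lie at chr7:97309380-97332020 (Usp35), chr13:21179445-21194724 (Trim27), chr4:152008803-152017680 (Klhl21), chr11:67854523-67922153 (Usp43), chr9:70425424-70503725 (Rnf111) and chr11:44518964-44565520 (Rnf145). The test for any change over the 6 times, which assumes no shape, called 0 members with 7 at an unadjusted p under 0.05 (with voom 0 and 10). It called 1.05% of all genes, and 9.76% had an unadjusted p under 0.05.

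**Figure D1:**
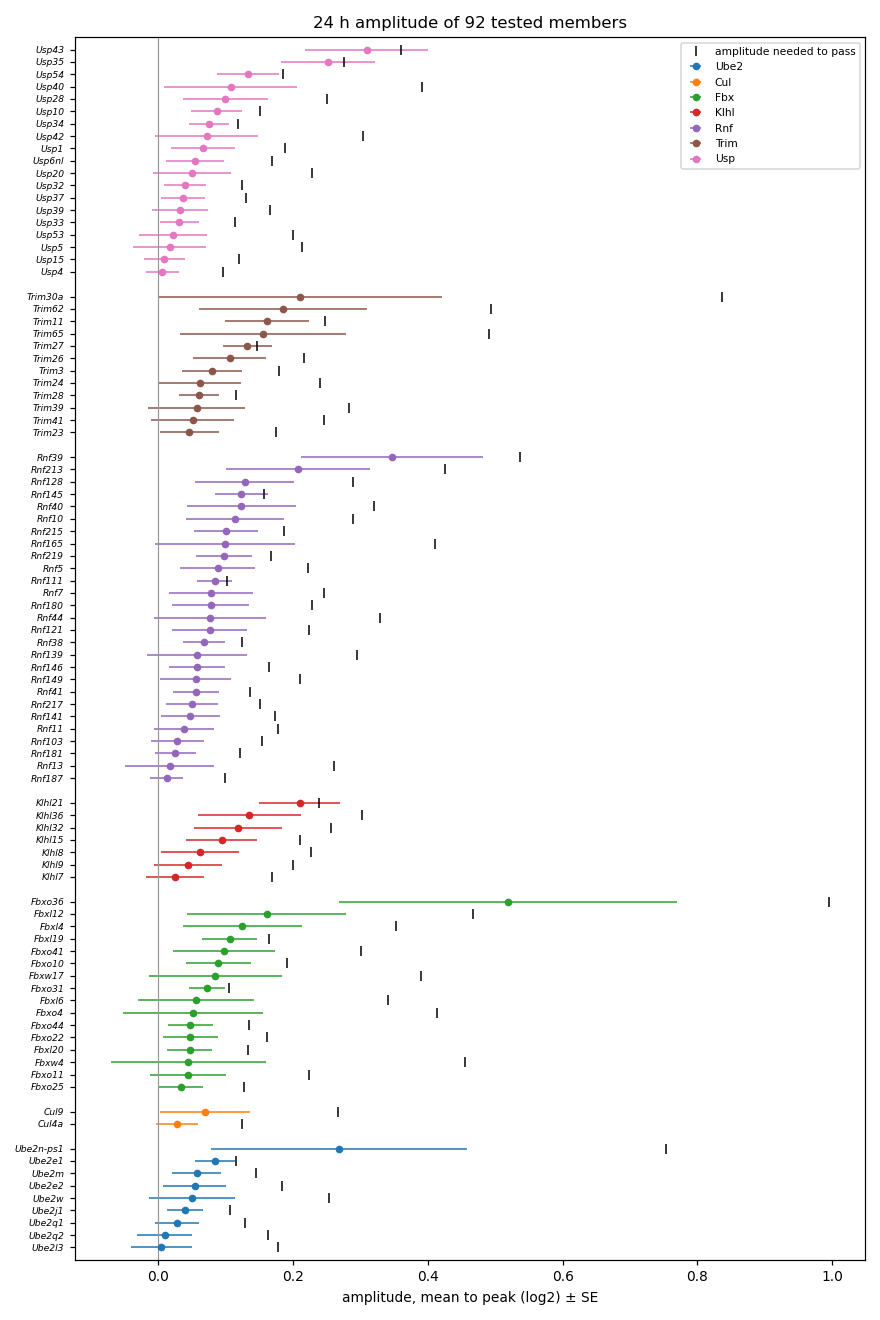
Fitted 24 h amplitude (x axis, log2 scale, mean to peak) with its standard error for 92 of the 93 tested members (y axis, grouped and coloured by family). The black ticks mark the amplitude needed to pass at that member's standard error; every point lies to the left of its tick, and Usp35, Trim27 and Klhl21 come near to it.

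A fit that held the first 2 principal components as covariates gave another count. It called 8 members (8.60%), against 11.7% of all genes: Klhl21, Ube2m, Trim27, Usp54, Usp35, Rnf111, Usp43 and Rnf145. The same fit called 1 member for any change over the 6 times (Rnf44), against 6.79% of genes. Both tests used the same libraries and covariates, and whether the members' share of calls differed from that of the whole table was not tested. The principal components were computed from these same expression values, and what they stand for was not tested.

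Among the conjugating enzymes, 0 of 9 passed. Ube2e1, a ubiquitin-conjugating enzyme, had mean log2 values of 10.20 ± 0.10 at ZT2 (SD, n = 10 at each time but ZT10, where n = 9), 10.23 ± 0.14 at ZT6, 10.27 ± 0.17 at ZT10, 10.22 ± 0.18 at ZT14, 10.10 ± 0.16 at ZT18 and 10.12 ± 0.13 at ZT22. Its libraries overlapped at all times, from 9.85 to 10.33 over ZT2, ZT18 and ZT22, and its amplitude was 0.08 ± 0.03 (SE) with a fitted peak at ZT8.53 (adjusted p = 0.29). Of its exonic bases, 16.1% lie under Nkiras1 on the other strand. Ube2m, which conjugates NEDD8 to cullins, was highest at ZT10, with a lowest, median and highest library of 11.12, 11.38 and 11.48, against 10.69, 11.05 and 11.38 at ZT6. The high time stood out from its neighbours by more than its own SD of 0.11, yet the cosine fit gave an amplitude of 0.06 ± 0.04 (adjusted p = 0.844). With the 2 principal components the amplitude was 0.09 ± 0.02 with a peak at ZT11.3 (adjusted p = 0.0193).

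Of the cullins, Cul4a and Cul9 were in the table. Cul4a, the scaffold of the ligases that use DDB1, had time medians between 10.13 and 10.27 and an amplitude of 0.03 ± 0.03 (adjusted p = 0.996). Cul9, a large cullin of the cytoplasm that binds p53, had time means between 9.66 and 9.97 with SDs of 0.26 to 0.44, and an amplitude of 0.07 ± 0.07 (adjusted p = 0.974). Neither changed over the day by more than its libraries differed at one time.

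Among the F-box receptors, 0 of 17 passed. Fbxo31, a receptor that acts on cyclin D1 after DNA damage, ran from a mean of 11.33 ± 0.14 at ZT6 to 11.47 ± 0.08 at ZT22 (SD, n = 10), and its fitted amplitude was 0.07 ± 0.03, peaking at ZT20.2 (adjusted p = 0.331). Fbxl19, a receptor with a zinc finger that binds unmethylated CpG, was lowest at ZT14 with a mean of 9.37 ± 0.26 and highest at ZT2 and ZT22, both with a mean of 9.65 (amplitude 0.11 ± 0.04, adjusted p = 0.412). Its ranges at those times, 8.87 to 9.74 at ZT14 and 9.41 to 9.86 at ZT22, overlapped.

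Among the kelch adaptors of cullin 3, Klhl21, which is known for a role at the mitotic spindle, came nearest. Its lowest, median and highest log2 values were 7.52, 8.38 and 8.76 at ZT2, 7.66, 8.22 and 8.82 at ZT6, 7.92, 8.55 and 8.85 at ZT10, 8.34, 8.67 and 9.05 at ZT14, 8.07, 8.34 and 8.80 at ZT18 and 7.57, 8.32 and 8.74 at ZT22. The libraries at ZT14 were high as a group, but they overlapped those of every other time. The amplitude was 0.21 ± 0.06 with a peak at ZT13.5, a 1.34-fold difference from trough to peak (adjusted p = 0.112). Without the ZT2 female library of replicate 4 it passed, with an adjusted p of 0.0486. Of its exonic bases 20.5% lie under Gm9768 on the other strand, and the strand setting of the counting is not given in the sources used here, so reads of the pair cannot be told apart. Klhl32, next by p among the 7 kelch genes, had an amplitude of 0.12 ± 0.06 (adjusted p = 0.740). Klhl9, a kelch adaptor linked to cell division, had time means between 12.81 and 12.94 and an amplitude of 0.04 ± 0.05 (adjusted p = 0.996). The overlap with a gene on the other strand was 15.8% for Klhl9, and it was over 10% for 14 of the 93 members.

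Among the Rnf genes, 0 of 27 passed. Rnf111, also known as Arkadia, a ligase that recognises SUMO chains and promotes TGF-beta signalling, had means of 10.42 ± 0.07 at ZT2 and 10.41 ± 0.10 at ZT6 (SD, n = 10), and of 10.56 ± 0.17 at ZT14 and 10.55 ± 0.11 at ZT18. Its amplitude was 0.08 ± 0.03 with a peak at ZT15.7 (adjusted p = 0.174). Rnf145, a ligase of the endoplasmic reticulum that takes part in sterol-controlled breakdown of HMG-CoA reductase, had its lowest mean at ZT2 (lowest, median and highest library 10.25, 10.52 and 10.68) and its highest at ZT14 (10.57, 10.72 and 11.29). Its amplitude was 0.12 ± 0.04 with a peak at ZT12.7 (adjusted p = 0.199). The high libraries at ZT14 reached past every library at ZT2, while the lower ones did not. Rnf39 had the largest amplitude of the family, 0.35 ± 0.14 (adjusted p = 0.406), on a mean of 17.3 reads per library.

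Among the Trim genes, 0 of 12 passed. Trim27, a RING ligase also called RFP, had lowest, median and highest log2 values of 8.70, 9.02 and 9.29 at ZT2, 8.65, 9.07 and 9.34 at ZT6, 8.87, 9.13 and 9.33 at ZT10, 9.05, 9.30 and 9.48 at ZT14, 8.99, 9.13 and 9.35 at ZT18 and 8.75, 9.001 and 9.44 at ZT22. Its libraries were highest at ZT14 by median and overlapped at all times. The amplitude was 0.13 ± 0.04 with a peak at ZT14.1, a 1.20-fold difference from trough to peak (adjusted p = 0.0977), and 0.15 would have been needed. Trim28, the corepressor of the KRAB zinc finger proteins, had time means between 10.76 and 10.87 (amplitude 0.06 ± 0.03, adjusted p = 0.632). Trim11 had an amplitude of 0.16 ± 0.06 and a peak at ZT8.19 (adjusted p = 0.387). Over the 6 time means, the course of Trim27 was most like that of Klhl21, with a Pearson r of 0.98, a description over 6 points that share all their libraries.

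Among the deubiquitinases, 0 of 19 genes with a Usp name passed, although Usp35 had the smallest p of all members. Usp35, one of the deubiquitinases reported to act on mitochondria, had lowest, median and highest log2 values of 6.97, 7.36 and 7.85 at ZT2, 7.10, 7.92 and 8.43 at ZT6, 7.45, 7.99 and 8.49 at ZT10, 7.50, 8.01 and 8.41 at ZT14, 7.19, 7.58 and 8.11 at ZT18 and 6.80, 7.88 and 8.08 at ZT22. The medians of ZT6, ZT10, ZT14 and ZT22 lay above the highest library of ZT2, and the ranges of all times overlapped. The amplitude was 0.25 ± 0.07 with a peak at ZT11.2, a 1.42-fold difference from trough to peak (adjusted p = 0.0941), and 0.28 would have been needed. Usp43 was highest at ZT10 (6.09, 6.80 and 7.72) and lowest at ZT18 (5.08, 5.99 and 6.40), so that the median of ZT10 lay above every library of ZT18. Its amplitude was 0.31 ± 0.09 with a peak at ZT7.14, a 1.54-fold difference (adjusted p = 0.13), on a mean of 28.7 reads per library and with 12.8% of its exonic bases under another gene on the other strand. Usp54, at 0.13 ± 0.05 and ZT17.6 (adjusted p = 0.29), and Usp34, at 0.08 ± 0.03 and ZT10.6 (adjusted p = 0.431), were the other two below an unadjusted p of 0.05. Both are described because of their values.

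**Figure D2:**
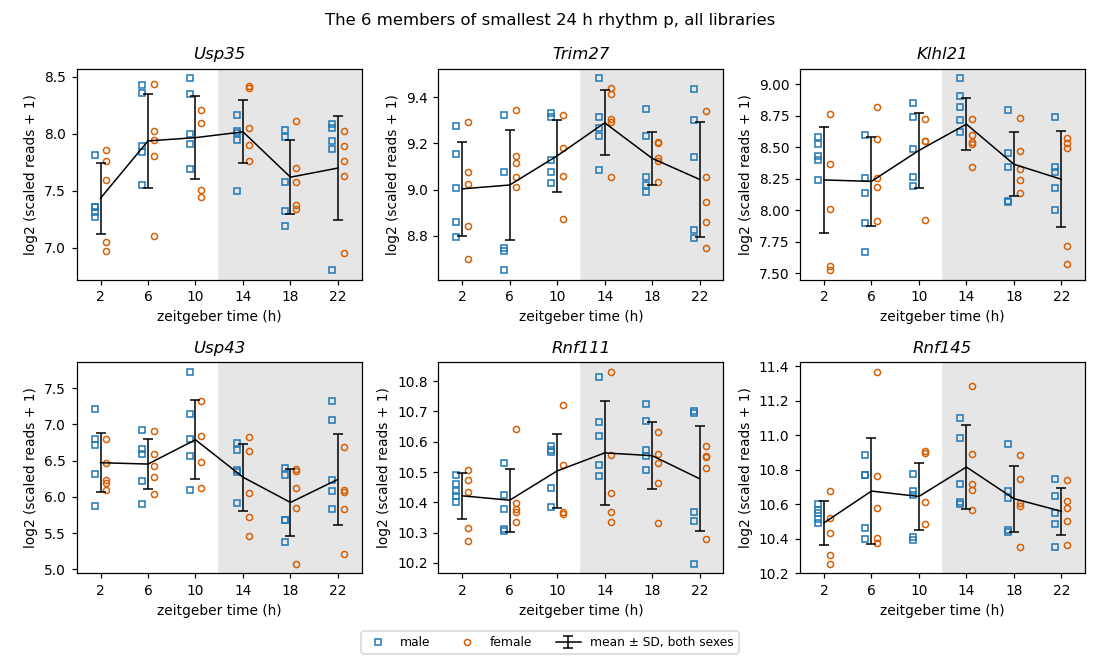
Log2 of the scaled read count plus 1 (y axis) against zeitgeber time in hours (x axis) for the 6 members of smallest rhythm p; squares are male and circles female libraries, the line joins the means of both sexes with SD bars, and grey marks the dark phase. Klhl21 and Trim27 are highest at ZT14 with means of 8.68 and 9.29, Usp43 is highest at ZT10 with 6.79, and libraries of all times overlap in each panel.

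Of 16 family genes listed for a link to clock proteins only 4 were in the table, so most of that list could not be tested. Cul4a, Trim28 and Klhl9 are on it and were tested. Their amplitudes of 0.03, 0.06 and 0.04 lay below the median of all genes, and none had an unadjusted p under 0.05. For other genes of the pathway the same test was read from lists of genes outside the 7 families. Most genes of each list were missing from the table and could not be tested. For example, 2 of 16 listed subunits of the anaphase-promoting complex and 18 of 51 listed proteasome genes were in it. The counts below are of tested genes only and do not speak for whole pathways. The test called 0 of 2 ubiquitin genes, 0 of 7 genes of the NEDD8 pathway and 0 of 5 of the SUMO pathway. It called 0 of 36 cullin adaptors of other names and 0 of 2 subunits of the anaphase-promoting complex. It called 0 of 12 HECT and RBR ligases and 0 of 8 other deubiquitinases. It also called 0 of 18 proteasome genes and 0 of 12 genes of the p97 and endoplasmic reticulum degradation machinery. In these last 2 lists no tested gene had an unadjusted p under 0.05. Of 31 other RING ligases 1 was called and 11 had an unadjusted p under 0.05. The called gene was Znrf1, a membrane-bound RING ligase of neurons, whose amplitude was 0.17 ± 0.04, peaking at ZT21.7 (adjusted p = 0.00925). With the 2 principal components as covariates 7 of the 36 cullin adaptors, 2 of the 12 HECT and RBR ligases, 10 of the 31 other RING ligases and 1 of the 8 other deubiquitinases were called, against 11.7% of all genes, and 0 in each of the other lists. By the first test Znrf1 was followed by Otud4, a deubiquitinase of another family, with 0.12 ± 0.03 at ZT16.8 (adjusted p = 0.0619).

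The dark phase was then compared with the light phase as the mean of 3 times against 3. No member passed (0 of 93, limma, with 6 at an unadjusted p under 0.05; with voom 0 and 7), where 0.702% of all genes passed and 8.35% had an unadjusted p under 0.05. Of the members 47 were higher and 46 lower in the dark, with a median difference of 0.00. Usp43 had a mean of 6.56 in the light and 6.14 in the dark, a difference of -0.42 ± 0.13 (SE, adjusted p = 0.149). Fbxo10, a receptor known to act on BCL2, had means of 9.13 and 9.27, a difference of 0.15 ± 0.06 (adjusted p = 0.367). The differences of Rnf111, 0.09 ± 0.04 (adjusted p = 0.479), and Ube2e1, -0.09 ± 0.04 (adjusted p = 0.524), were smaller. With the 2 principal components as covariates 3 members passed, Fbxo31, Usp43 and Klhl15, which is 3.23%, against 4.82% of all genes.

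Males and females were compared with time as a factor. None of the 93 members passed (limma, 1 at an unadjusted p under 0.05; with voom 0 and 2), where 0.0234% of all genes passed and 2.43% had an unadjusted p under 0.05. That 1 member was Trim30a, an interferon-inducible gene, with a lowest, median and highest value of 2.68, 5.72 and 6.51 in males and 0.00, 5.13 and 6.56 in females. The difference of 0.73 ± 0.29 (adjusted p = 0.999) rests on a mean of 13.4 reads per library, its near copy Trim30b may share reads with it, and the ranges of the sexes overlap almost whole. Rnf39 followed at 0.38 ± 0.20, and on the female side Rnf215 at -0.11 ± 0.07 and Cul4a at -0.08 ± 0.04 (adjusted p = 0.999 for each).

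Whether the rhythm differed between the sexes was tested by the interaction of sex with the cosine and sine terms. No member and no other gene passed (0 of 4273, 0%, limma), with 5 members and 4.21% of all genes at an unadjusted p under 0.05, and voom also called 0 members with 5 unadjusted. Fbxo10 had the smallest p among the members: its amplitude was 0.07 ± 0.06 in males with a peak at ZT1.86, and 0.23 ± 0.06 in females with a peak at ZT16.6 (adjusted p = 0.741). At ZT18 its male libraries had a lowest, median and highest value of 8.87, 9.20 and 9.43 and the female ones 9.42, 9.63 and 9.64. At ZT14 they were 8.79, 8.99 and 9.22 in males and 9.14, 9.37 and 9.77 in females, so the sexes met only at their edges at these times, and at the other times they overlapped widely. Fbxl20, which acts on the synaptic protein RIM1, had 0.13 ± 0.05 at ZT17.4 in males and 0.05 ± 0.05 at ZT2.78 in females (adjusted p = 0.741). For the members nearest to a rhythm the amplitudes fitted in males and in females were, for Usp35, 0.27 ± 0.10 and 0.25 ± 0.10, for Trim27 0.14 ± 0.05 and 0.14 ± 0.05, and for Klhl21 0.20 ± 0.08 and 0.23 ± 0.09.

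The most calls among the members came from comparing the libraries numbered 49 to 60 with the earlier ones, with the group of time and sex held as a factor. Of the 93 members 51 passed (54.8%), 16 higher and 35 lower, and of all genes 54% passed, 23% higher and 31% lower. Scaled by library totals instead, 46 members passed (49.5%), 44 higher and 2 lower, and 18 of them were among the 51; of all genes 47.6% passed, 46.1% higher and 1.45% lower. That scaling moved the median of all genes up by 0.41. Scaled by totals outside the 6 noncoding genes, 51 members passed (54.8%), 15 higher and 36 lower, and 50 of them were among the first 51. Of all genes 54.8% then passed, 913 higher and 1428 lower, and their median moved by -0.02. All directions below are therefore relative to the deposited scaling. The members' reads made up 2.20 ± 0.08% of the reads outside the 6 noncoding genes in the earlier libraries (SD, n = 48) and 2.03 ± 0.08% in the later ones (n = 11).

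By family, the kelch genes had 5 of 7 called lower and none higher, while under library totals 6 of the 7 were higher and none passed. The Rnf genes had 14 called lower and 5 higher, against 0 and 9 under library totals. The Ube2 genes had 5 lower and 1 higher, against 0 and 3. Of the Usp genes 2 were called lower and 3 higher, against 1 and 16. The F-box genes had 7 lower and 3 higher, against 1 and 8, and the Trim genes 2 and 3, against 0 and 6. Under totals outside the 6 noncoding genes, the kelch genes had 5 called lower and 0 higher, the Rnf genes 14 and 5. The Ube2 genes then had 5 and 1, the Usp genes 2 and 3, the F-box genes 8 and 3 and the Trim genes 2 and 2. Klhl8 fell from a median of 10.50 (9.76 to 10.95) in the earlier libraries to 9.98 (9.56 to 10.26) in the later ones, a difference of -0.51 ± 0.08 (adjusted p = 5.14e-06), but was at -0.09 ± 0.14 under library totals (adjusted p = 0.609). Klhl9, at -0.41 ± 0.07, moved to 0.01 ± 0.14. Under totals outside the 6 noncoding genes Klhl8 stood at -0.53 ± 0.08 (adjusted p = 2.48e-06) and Klhl9 at -0.43 ± 0.07.

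Some members kept their side under the deposited scaling and under library totals. Since library totals moved the median of all genes up by 0.41, a member already higher would stay higher. For Rnf165 and Cul9 the second scaling is therefore no check of the direction. Rnf165, a ligase related to Rnf111, rose by 0.86 ± 0.15 (adjusted p = 1.03e-05), from a lowest, median and highest value of 7.01, 8.55 and 9.41 to 9.03, 9.40 and 9.55, and by 1.27 ± 0.20 under library totals. Cul9 rose by 0.56 ± 0.10, from 8.90, 9.65 and 10.47 to 9.89, 10.34 and 10.64, and by 0.98 ± 0.18 under library totals. Usp40 was lower by both, at -0.86 ± 0.15 (adjusted p = 1.03e-05) and -0.45 ± 0.17 (adjusted p = 0.0270). So was Fbxo4, at -0.88 ± 0.16 (adjusted p = 1.91e-05) and -0.45 ± 0.19 (adjusted p = 0.0393). In each of these the ranges of earlier and later libraries overlapped.

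Base composition and transcript length moved with this difference. The median GC content of the longest transcript was 55.9% for the 16 members called higher, 45.4% for the 35 called lower and 50.04% for the other 42, and over all genes it was 52.5%, 46.9% and 50.3%. Across the 93 members the Spearman correlation of GC content with the difference was 0.34, and across 4258 genes 0.25, given as a description since these genes share the same libraries. The median length of that transcript was 4486.5 bases for the members called higher and 3641 for those called lower, and 4646.5 and 2894 over all genes. The Spearman correlation of length with the difference was 0.27 across the members and 0.35 across all genes, again as a description. The sum of the inhibitory neuron markers Gad1, Gad2, Slc32a1 and Vip had medians of 12.11 (11.79 to 12.75) in the earlier and 12.27 (12.09 to 12.55) in the later libraries, and the sum of the microglial markers P2ry12 and Tmem119 10.19 (9.35 to 10.66) and 9.98 (9.05 to 10.14). The part of these in the members' differences was not tested. Without the later libraries Usp35 had an amplitude of 0.24, Trim27 0.12, Klhl21 0.18 and Usp43 0.35, and again 0 members passed, with 11 at an unadjusted p under 0.05.

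**Figure D3:**
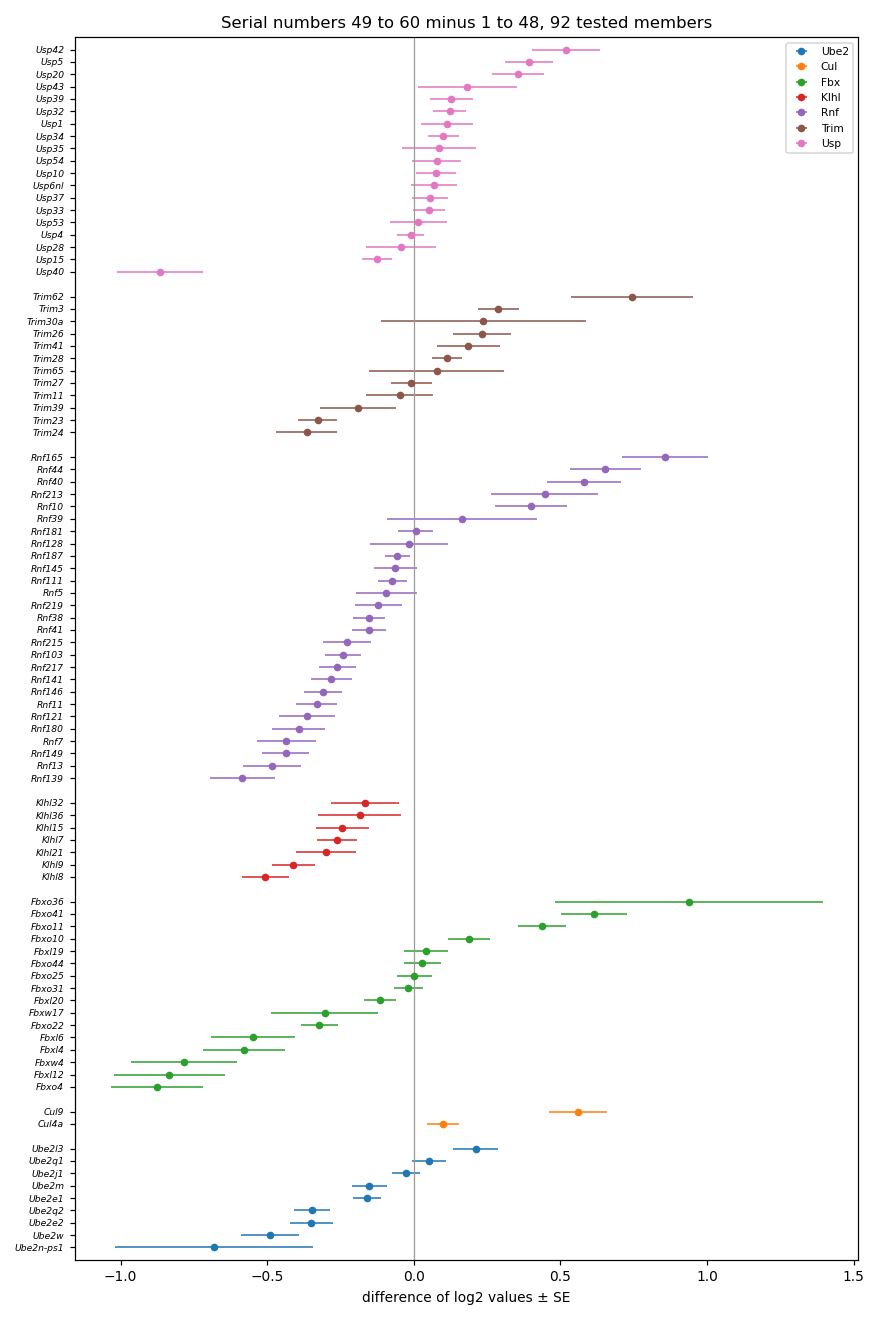
Difference of log2 values between the 11 libraries numbered 49 to 60 and the 48 earlier ones (x axis, with its standard error) for 92 of the 93 tested members (y axis, grouped and coloured by family), on the deposited scaling. All 7 kelch genes lie left of 0, Rnf165 lies at 0.86 and Usp40 at -0.86. Under library totals 6 of the 7 kelch genes lie right of 0, and under totals outside the 6 noncoding genes all 7 lie left of it.

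Levels were compared per length, as scaled reads per kilobase of exon. The median over the members was 164, against 122.996 over all tested genes. By family the medians were 492 for Ube2, 192 for Rnf, 166 for the F-box genes, 130 for the 2 cullins, 94.2 for Klhl, 85.9 for Usp and 70.9 for Trim. Rnf187, a RING protein described as a coactivator of AP-1, was the highest at 3342 ± 262 (SD, n = 59), with libraries from 2823 to 3966. Rnf11, a small RING protein that works with ITCH and A20, had 2145 ± 363, with libraries up to 3089, and Klhl9 1801 ± 337, so that the ranges of neighbours overlapped. They were followed by Rnf7, the RING partner of cullin 5, at 1261 ± 319, Ube2m at 977.8 ± 128.2, Klhl7 at 772.5 ± 119.2, Usp5, which takes apart free ubiquitin chains, at 672.6 ± 138.6, and Trim23 at 667.8 ± 111.4. Klhl7, Usp5 and Trim23 differed by less than their SD. Ube2n-ps1 stood at 642 ± 389 with libraries from 46.1 to 1598, and Fbxo11, a receptor that acts on BCL6, at 624.1 ± 140.9. The members nearest to a rhythm were in the middle or low: Rnf145 had 207, Rnf111 163, Trim27 100.99, Klhl21 85.2, Usp35 42.8 and Usp43 18.2. Fbxo36 was the lowest of the tested members, at 6.97.

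**Figure D4:**
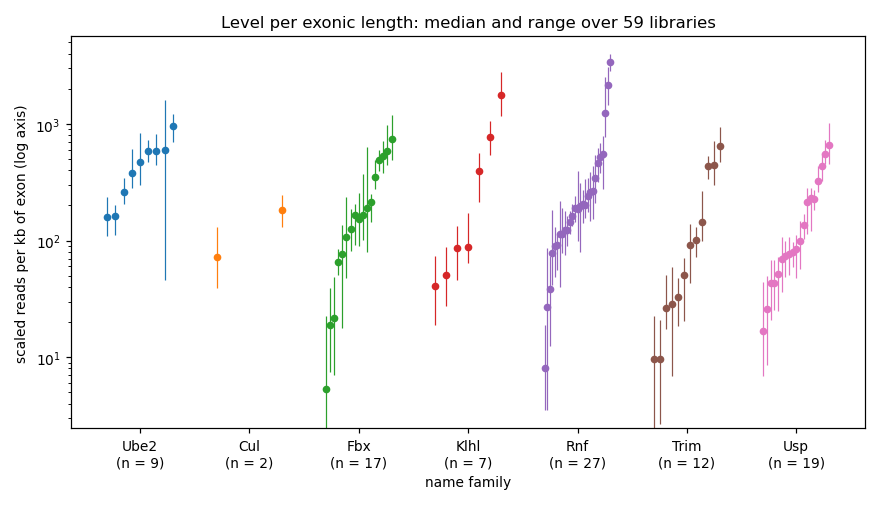
Level as scaled reads per kilobase of exon (y axis, log scale) of each tested member by family (x axis); points are medians and bars the lowest to the highest of 59 libraries, and bars that reach 0 run off the axis. Rnf187 is the highest with a median of 3361, and the Ube2 genes lie highest as a family.

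The spread between libraries of one group limited what could be called. The SD within groups was smallest for Rnf187, at 0.11 on the log2 scale or a 1.08-fold difference, with Usp4 at 0.12 and Ube2j1 at 0.13. Rnf187 also had one of the smallest amplitudes, 0.01 ± 0.02, where 0.10 would have been needed. At the other end were Fbxo36 with 1.40, Ube2n-ps1 with 1.08, Trim30a with 1.06 and Rnf39 with 0.76, for which a 24 h change had to be several times larger to be called.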

How the data were processed

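The values deposited by the authors are log2 of a scaled read count plus 1, as read from the values themselves: once the log was undone and 1 taken off, dividing by a step proper to each library gave whole reads for 100% of 264556 values, within a tolerance of 0.05. Recovered reads gave the depth and the filters. Per the labels' protocols RNA was extracted with a Qiagen RNeasy Plus Micro kit and libraries made with a Takara SMART Stranded Total RNA kit; FastQC, HTSeq, DESeq2 and GRCm38 are named in the submitters' processing notes. The aligner, the annotation and the strand setting are not given in the sources used here. Genes with at least 10 reads in at least 4 libraries, 4273 in all, were fitted with limma 3.58.1 in R 4.3.3 (trend and robust), on the deposited log2 values, with Benjamini-Hochberg adjustment over all of them and a threshold of 0.05. A count model was to be used only if the table held counts; limma voom on the recovered reads was an alternative. Scripts were tested on simulated data. Positions, exonic lengths and overlaps are from GENCODE M21 on GRCm38.

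Groups came from the titles. Replicate numbers are the runs of 12 serial numbers. Each library was treated as 1 animal. Members and lists were chosen with earlier results of these data known. Named members are those called over time, the 2 of smallest rhythm p and the 2 of highest level per length in each family, and the clock-linked list. Also named are the 2 of smallest p in each direction for phase, sex and serial run, and the 2 of smallest p for the difference of rhythm. Usp54, Usp34, Usp4, Usp6nl, Ube2j1, Rnf7, Rnf44, Klhl15, Fbxo36 and Fbxo4 were named after their values were seen. Alternatives were another scaling (library totals, or totals outside 6 genes), a filter of 50 reads in 30 libraries or none, a pseudocount of 10, no trend, voom, 2 principal components, a replicate block, leaving out serial numbers 49 to 60 and leaving out each library. Results of some genes are not reported here.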

Additional observations from a re-analysis of the deposited data

Results flagged for a closer look

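For 17 members, the libraries of each of the 6 times were screened for one far from the rest, and 6 such sets had one; chance gives about 1 in 20. Cul4a at ZT6 had a low male library of replicate 4 at 9.70, with the next at 10.12. Fbxl19 at ZT18 had a low male library of replicate 4 at 8.71, with the next at 9.34. Fbxo31 had a low female library of replicate 2 at ZT2, 11.07 with the next at 11.33, and a high female library of replicate 3 at ZT6, 11.66 with the next at 11.43. Klhl32 at ZT10 had a low male library of replicate 1 at 7.22, with the next at 8.04. Rnf145 at ZT6 had a high female library of replicate 4 at 11.37, with the next at 10.89.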

How the results depend on the processing

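No member passed any of the 3 time tests, the sex test or the test of the difference of rhythm on the deposited values, and this held under every alternative run except 1 left-out library and the 2 principal components as covariates, which called 8 members for the rhythm, 1 for the times and 3 for the light against the dark phase; the cause was not tested. Leaving out each of the 59 libraries gave between 0 and 1 members for the rhythm (Klhl21, without the ZT2 female library of replicate 4) and between 46 and 53 for the serial run. Same-numbered libraries of other groups correlated at a mean of 0.11 (from -0.49 to 0.60), and other-numbered ones at -0.03 (from -0.68 to 0.63). Of 319 same-numbered pairs 148 were over 0.1, against 310 of 1276. By replicate number the mean was 0.05, 0.02, 0.04 and 0.07 for 1 to 4 and 0.41 for the last run. Only the last run had all 55 pairs over 0.1. The main fits held no replicate block. With the replicate block 0 members passed for the rhythm, with 13 at an unadjusted p under 0.05, and 2.67% of all genes passed in place of 1.9%. Over all genes the rhythm call was made for 499 with the principal components, 50 without serial numbers 49 to 60 and 3 under library totals. The times test called 45 genes, and 290, 26 and 2 under those alternatives and 91 with the block; the light against dark test called 30, and 206, 13 and 6, and 46 with the block. Under totals outside the 6 noncoding genes the rhythm test called 88 genes (2.06%), the times test 37 and the light against dark test 26. The sex test called 1 gene, and 3 with the principal components, 2 with the block and 0 under library totals (28 at an unadjusted p under 0.05). Of 2123 alternatives for single members 2113 stayed on the same side of the threshold, among them the rhythm of Cul4a under library totals, whose direction changed (unadjusted p = 0.993), 9 passed where the value reported did not, and Klhl8 no longer passed for the serial run under library totals. Each single value had between 66 and 69 alternatives, and 59 of them left out 1 library and kept the rest. Many values also lay far from the threshold, so few of the alternatives could have crossed it. Depth limits the members with few reads, Fbxo36, Trim30a, Rnf39 and Usp43 among them.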
